A study of Mus musculus with 6 samples.

Results

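The genes described here are the ones that move iron into, around and out of the liver cell. They were taken by name from a fixed list of 10 symbols, and all 10 were found among the 45777 genes of the deposited mouse liver table. Livers came from male C57BL/6 mice on a high-fat diet (HFD), 3 per genotype with 1 library each, and the labels give no age. Fpn is the study's name for Slc40a1, the gene of ferroportin, and both groups were homozygous for a floxed (flox/flox) allele of it. Littermates without Cre were the LT controls, and the Fpn-LKO mice also carried Alb-Cre, a recombinase under the albumin promoter that acts in hepatocytes, so that other liver cells keep the gene. The floxed allele came from a 129S strain and was backcrossed to C57BL/6J. All libraries carry the same batch label.

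Iron travels in plasma bound to transferrin, which hepatocytes take up through transferrin receptors; in the endosome a reductase frees ferrous iron, which a divalent metal transporter carries to the cytosol. Iron that is not bound to transferrin enters through the ZIP carrier Slc39a14, and ferroportin is the only known exporter, aided by the copper oxidase ceruloplasmin. When cytosolic iron is low, iron regulatory proteins bind hairpins called iron-responsive elements (IREs). Binding in the 3 prime untranslated region (UTR) of Tfrc keeps that mRNA stable, whereas binding in the 5 prime UTR of Slc40a1 blocks translation without degrading the mRNA.

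These hairpins are shown because they are the sequences through which the known control of Tfrc and Slc40a1 by iron acts. A hairpin core was searched for as a C, 5 bases of stem, the loop CAGTGN and 5 bases that pair with the stem, G with T allowed, on the sense strand of GENCODE transcripts of GRCm38. It was present in the 5 prime UTR of 1 of the 10 genes and in the 3 prime UTR of 1, where 0.134% of 20873 genes with a 5 prime UTR and 0.586% of 21669 genes with a 3 prime UTR held it. Capitals mark the 6 loop bases. Hairpins of another form were not searched for, so the sites shown need not be all the IREs of a gene. The Slc40a1 site lies in exon 1 of 8, on the minus strand at chr1:45925464-45925493:
Slc40a1 5 prime UTR: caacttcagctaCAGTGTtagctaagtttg

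The 4 Tfrc sites lie in the last of 19 exons, on the plus strand of chromosome 16 at 32631219-32631248, 32631598-32631627, 32631663-32631692 and 32631710-32631739, in this order:
Tfrc 3 prime UTR, site 1: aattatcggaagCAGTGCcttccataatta
Tfrc 3 prime UTR, site 2: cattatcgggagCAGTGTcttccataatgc
Tfrc 3 prime UTR, site 3: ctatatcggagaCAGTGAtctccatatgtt
Tfrc 3 prime UTR, site 4: aattatcgggaaCAGTGTttcccataattt

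The libraries held 43086184 to 47778683 reads on genes, and Alb made up 3.62% to 5.03% of them. Summed over 7 hepatocyte markers, CPM (read counts scaled to a common library size with TMM, a correction for library composition) ranged from 67635 to 83118 in LT and from 70896 to 77040 in Fpn-LKO, so the tissue was liver by its defining markers in both groups. Of 5 exocrine pancreas markers, 4 had no read. Sums over 9 Kupffer cell and macrophage markers overlapped between genotypes (316 to 419 and 266 to 569 CPM), as did those of 6 stellate and 6 red cell markers. The 6 sinusoidal endothelial markers summed to 287 to 345 CPM in LT and to 267 to 282 CPM in Fpn-LKO, without overlap. In bulk tissue, fewer cells of a type and less RNA per cell cannot be told apart.

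Levels can be compared between genes only per length, and were read from TPM, the length-scaled abundance that the authors deposited. Trf, which encodes transferrin, took 90.0% of the TPM of the 10 genes and ranked 21 among all genes of the table by mean TPM. Its level was 7838 ± 1092 TPM in LT and 8246 ± 1023 TPM in Fpn-LKO (SD, n = 3 each). Cp, the ceruloplasmin gene, came second with 479 ± 86.7 and 531 ± 74.5 TPM. In LT, Tfr2, Steap4, Slc40a1 and Slc39a14 followed with means of 114, 71.9, 58.4 and 46.8 TPM, then Slc39a8, Tfrc and Slc11a2 with 10.4, 9.83 and 8.16 TPM, and Steap3 was lowest with 3.29 TPM. Neighbours in this order whose LT values overlapped were Steap4 and Slc40a1, Slc40a1 and Slc39a14, Slc39a8 and Tfrc, and Tfrc and Slc11a2. In Fpn-LKO the order changed at 2 places. Steap4 (170 TPM) stood above Tfr2 (129 TPM), with overlapping values. Tfrc (4.53 TPM) stood below Slc11a2 (9.17 TPM), without overlap, and overlapped Steap3 (3.81 TPM). Slc39a8 and Slc11a2 also overlapped there, as did Slc40a1 and Slc39a14.

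**Figure D1:**
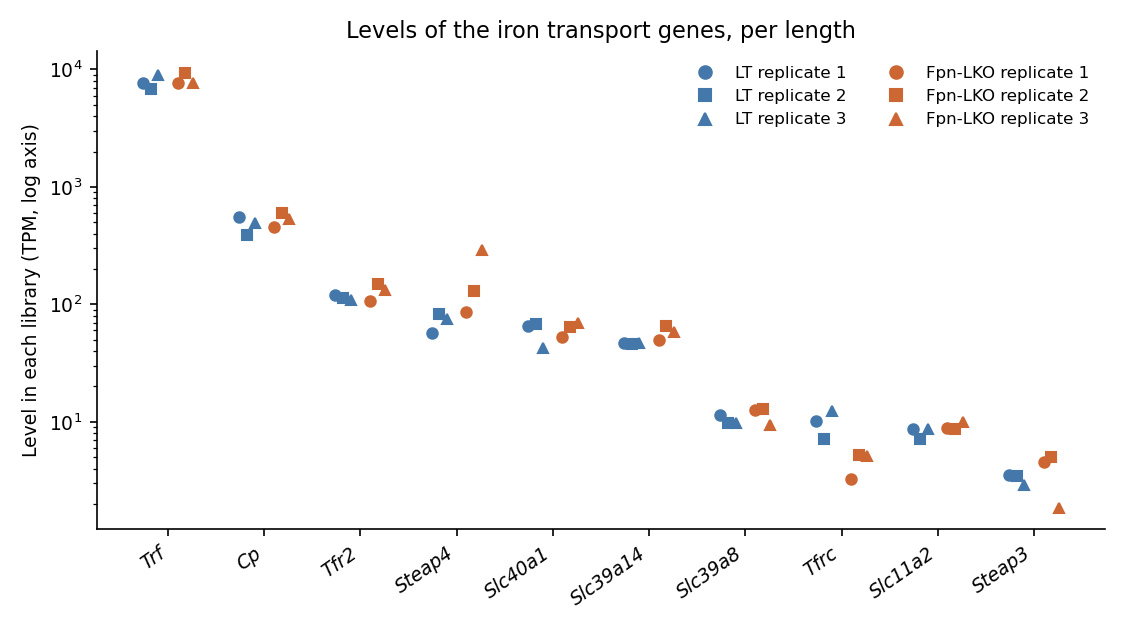
Level of each of the 10 genes in each library, in TPM on a log axis, ordered by the LT mean, with blue for LT and orange for Fpn-LKO and 1 marker shape per replicate number. Trf is highest and Steap3 lowest, and Tfrc is the only one of the 10 whose Fpn-LKO points all lie below its LT points.

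Between genotypes, Tfrc was lower and Steap4 higher in the Fpn-LKO libraries, Slc39a14 was slightly higher, and for the other 7 genes the values of the genotypes overlapped. Over the 17274 genes tested, none of the 10 passed an adjusted p-value of 0.05 in edgeR's quasi-likelihood test, the threshold that 0.0232% of all genes passed. With DESeq2's Wald test and with edgeR's exactTest, 1 of the 10 passed, which was Tfrc in both, against 0.417% and 0.365% of all genes. At an unadjusted p-value under 0.05 the quasi-likelihood test gave 2 of the 10, Tfrc and Steap4, against 4.80% of all genes. The CPM of the genotypes did not overlap for 3 of the 10, against 10.6% of all genes, with Tfrc lower and Steap4 and Slc39a14 higher. The 10 were chosen with earlier results of these data known, so these counts are no test of the list. For 8 of the 10 the log2 fold change was within 0.25 of 0, a window for which the share of all genes was not computed. The median of the 10 was 0.056, against -0.0040 for all genes tested.

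**Figure D2:**
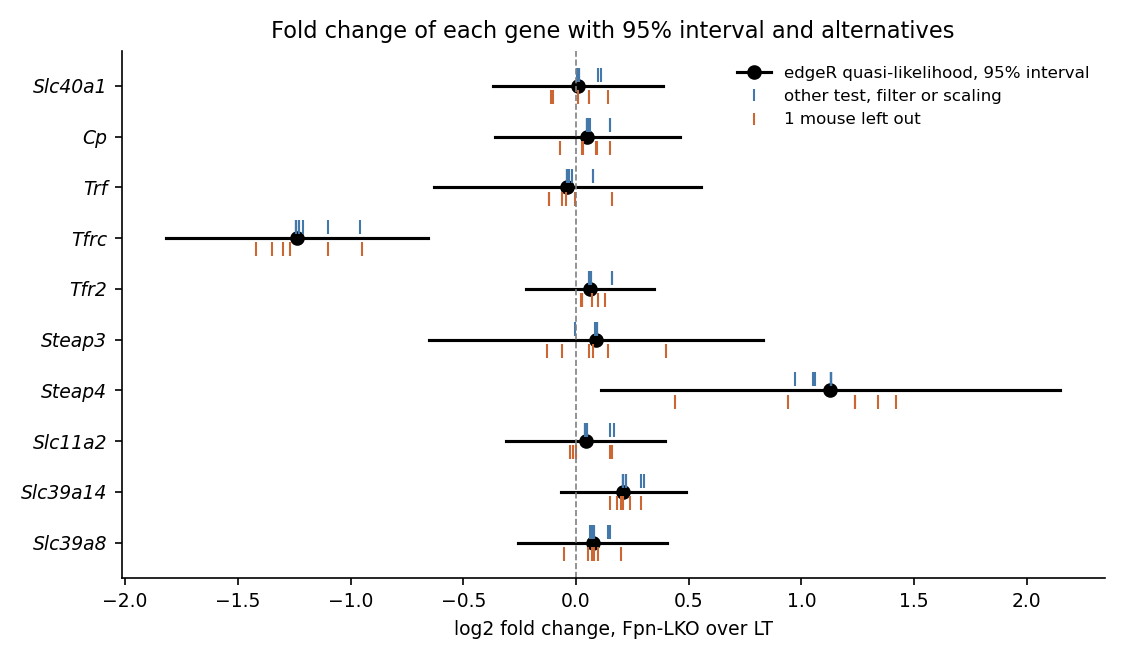
Log2 fold change of each gene, Fpn-LKO over LT, as points with 95% intervals from edgeR's quasi-likelihood fit, with blue ticks for other tests, filters or scalings and orange ticks for fits with 1 mouse left out. Tfrc (-1.24) and Steap4 (1.13) are the genes whose interval does not include 0, and the Steap4 tick at 0.44 is the fit without Fpn-LKO replicate 3.

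Slc40a1 (NCBI gene 53945; chr1:45908070-45926532, minus strand, GRCm38), the deleted gene and only exporter, was read with 5224 to 8162 reads per library. Its level was 64.9, 67.5 and 42.9 TPM in LT replicates 1 to 3 and 52.8, 64.0 and 69.2 TPM in the libraries labelled Fpn-LKO. The highest value of all was in an Fpn-LKO library and the lowest in an LT library. On the CPM scale the fold change was 1.01, with a 95% interval from 0.774 to 1.31 (edgeR's quasi-likelihood fit, adjusted p = 0.995). A fall of the gene's total to less than 0.774 of the LT level therefore lay outside the interval. The table holds 1 total per gene, over 3 RefSeq transcripts for Slc40a1, and a transcript that lacks the floxed part is counted with the rest. The count thus shows no fall of the whole gene's total and cannot show whether the floxed exons were deleted. Their position is not given in the sources used here. The paper reports loss of ferroportin from hepatocytes of Fpn-LKO mice, from genotyping, primary hepatocytes and tissue staining. Every direction below is that of the libraries labelled Fpn-LKO.

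Macrophages express ferroportin to recycle iron from red cells, and in these mice their copy of the gene is not a target of Alb-Cre. The libraries with the highest Slc40a1 CPM in each genotype, LT replicate 2 with 180 and Fpn-LKO replicate 3 with 176, were also those with the highest sums over the 9 Kupffer cell and macrophage markers, 419 and 569 CPM. In the other 4 libraries Slc40a1 did not follow the marker sum. LT replicate 3 had 126 CPM of Slc40a1 at a sum of 328, and LT replicate 1 had 154 at 316. Fpn-LKO replicates 1 and 2 both had 143, at sums of 319 and 266. The part of macrophages in the Slc40a1 total was not tested.

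Tfrc (gene 22042; chr16:32608896-32632794, plus strand) encodes transferrin receptor 1, the high-affinity receptor of most cells, and carries the 4 hairpins shown above. It had 10.1, 7.15 and 12.3 TPM in LT and 3.26, 5.24 and 5.09 TPM in Fpn-LKO. All 3 Fpn-LKO libraries were below the lowest LT library, and the LT libraries were spread more widely. In CPM the means were 38.6 ± 12.6 and 16.4 ± 2.98 (SD, n = 3 each), a fold change of 0.424 with a 95% interval from 0.284 to 0.635 (edgeR's quasi-likelihood fit, adjusted p = 0.570). By unadjusted p-value it ranked 39 among the 17274 genes. DESeq2 gave an adjusted p of 0.00172 and exactTest one of 0.00480, and over all alternatives the adjusted p lay between 0.00172 and 0.946. An exact permutation test of the CPM gave p = 0.10, the smallest that 3 mice against 3 allow. Leaving out LT replicate 3, the highest, gave a log2 fold change of -0.95, and leaving out LT replicate 2 gave -1.42, against -1.24 with all mice.

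Tfrc is also abundant in dividing and erythroid cells. Sums over 10 cell cycle genes were 25.2 to 29.6 CPM in LT and 25.8 to 47.5 CPM in Fpn-LKO, and those over 6 red cell and erythroid genes were 253 to 876 and 381 to 1124 CPM. Both sums overlapped between genotypes, with ratios of means of 1.28 and 1.63, and the part of these cells in the Tfrc values was not tested. Slc4a1, the red cell anion exchanger, had no read in at least 1 library.

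Tfr2 (gene 50765; chr5:137569822-137588081, plus strand), the second transferrin receptor, is made mainly by hepatocytes, where it takes part in sensing iron for hepcidin, the hormone that degrades ferroportin; no hairpin match was found in it. It had 272, 290 and 304 CPM in LT, against 271, 315 and 316 in Fpn-LKO. Fpn-LKO replicates 2 and 3 were above all LT libraries, and the genotypes overlapped through replicate 1. Without Fpn-LKO replicate 1 they did not overlap, where 20.5% of all genes did not. The fold change was 1.04, with a 95% interval from 0.857 to 1.27 (edgeR's quasi-likelihood fit, adjusted p = 0.995).

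The receptors were also compared with each other within each liver. Tfr2 exceeded Tfrc by 12, 15.9 and 8.82 times in LT and by 32.3, 28.5 and 26.1 times in Fpn-LKO, as ratios of TPM, which do not depend on library scaling. The means were 12.3 ± 3.55 and 29.0 ± 3.17 (SD, n = 3 each; exact permutation test, p = 0.10, the smallest possible). The ratio of Slc40a1 to Tfrc was 6.43, 9.45 and 3.50 in LT and 16.2, 12.2 and 13.6 in Fpn-LKO, and that of Slc39a14 to Tfrc had means of 4.98 ± 1.31 and 13.1 ± 1.83 (exact permutation test, p = 0.10 for each). All 3 ratios share Tfrc, and a ratio shows unequal change only. The ratios computed without Tfrc overlapped between genotypes. These were Slc39a14 to Slc39a8 and Steap4 to Steap3 (exact permutation test, p = 0.50 for each) and Trf to Cp (p = 0.60, same test).

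**Figure D3:**
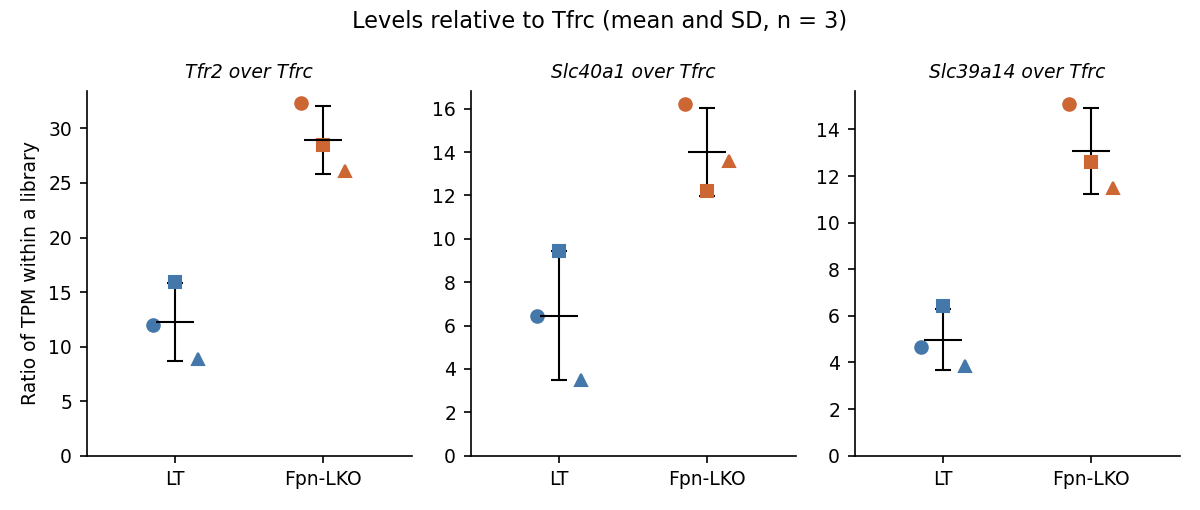
Ratios of TPM within each library of Tfr2, Slc40a1 and Slc39a14 to Tfrc, by genotype, from 0, with points for the 3 mice and a dash with error bars for mean and SD. In each panel the 3 Fpn-LKO points lie above the 3 LT points, with Tfr2 over Tfrc at 26.1 to 32.3 against 8.82 to 15.9.

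Steap3 (gene 68428; chr1:120226414-120271081, minus strand) and Steap4 (gene 117167; chr5:7960472-7982213, plus strand) are metalloreductases that turn ferric into ferrous iron; Steap3 is the endosomal reductase of red cell precursors, and Steap4 is induced in liver by inflammatory cytokines. Steap4 had 129, 207 and 206 CPM in LT, against 220, 270 and 696 in Fpn-LKO. Fpn-LKO replicate 3 was 3.36 times the highest LT library, while Fpn-LKO replicate 1 was just above it. The fold change was 2.19, with a 95% interval from 1.08 to 4.43 (edgeR's quasi-likelihood fit, adjusted p = 0.982). Without Fpn-LKO replicate 3 the log2 fold change was 0.44 in place of 1.13 (adjusted p = 0.953), and the ratio of mean CPM was 1.35.

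Steap3 ran the other way in that mouse. It had 7.41, 8.20 and 7.59 CPM in LT, a coefficient of variation of 5.33%, and 10.5, 9.83 and 4.29 CPM in Fpn-LKO, one of 41.7%. Fpn-LKO replicates 1 and 2 were above all LT libraries and replicate 3 below all of them, with 199 reads, for which counting error alone was 7.09%. The fold change was 1.06 with a 95% interval from 0.637 to 1.78 (adjusted p = 0.995 in the edgeR fit). The ratio of Steap4 to Steap3 in TPM was 158 in Fpn-LKO replicate 3 and 16.3 to 25.9 in the other 5 libraries.

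Fpn-LKO replicate 3 also had the highest sum over 15 acute-phase genes, 19341 CPM against 10297 to 15966 in the other libraries, and the highest Kupffer cell and macrophage sum. Its sum over 5 lymphocyte markers was also highest (36.3 CPM against 12 to 22.3). Only 1 of these 5, Ptprc, had reads in all libraries, so that sum is a weak measure of lymphocytes. The part of the acute phase and of these cells in the Steap4 and Steap3 values of that mouse was not tested. Without this mouse, 5 of the 10 genes had genotypes that did not overlap, with Steap3 and Slc39a8 joining on the higher side, where 21% of all genes did not overlap.

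Slc39a14 (gene 213053; chr14:70303467-70351452, minus strand), also called ZIP14, is the main carrier of iron outside transferrin into hepatocytes, and its mRNA rises in the acute phase. It had 183, 195 and 222 CPM in LT, against 223, 241 and 232 in Fpn-LKO. The lowest Fpn-LKO library was only just above the highest LT library. Mean CPM was 200 ± 20.1 in LT and 232 ± 9.22 in Fpn-LKO (SD, n = 3 each; exact permutation test, p = 0.10), a fold change of 1.16 with a 95% interval from 0.955 to 1.40 (adjusted p = 0.982 in the edgeR fit). The acute-phase sums were 10297 to 15966 CPM in LT and 12584 to 19341 in Fpn-LKO, overlapping, with a ratio of means of 1.26. Their part in the Slc39a14 values was not tested.

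Slc39a8 (gene 67547; chr3:135816882-135888572, plus strand), the related carrier ZIP8, was tightly held in LT with 28.9, 27.7 and 29.6 CPM and spread to 35.3, 30.4 and 25 CPM in Fpn-LKO. Its coefficient of variation was 3.29% in LT and 17.1% in Fpn-LKO. The fold change was 1.05 with a 95% interval from 0.837 to 1.32. Slc11a2 (gene 18174; chr15:100387898-100424209, minus strand), or DMT1, which carries iron out of the endosome, had 24.8, 24.1 and 30.3 CPM in LT, against 29.2, 22.6 and 29.8 in Fpn-LKO, a fold change of 1.03 with a 95% interval from 0.806 to 1.32. These groups overlapped in CPM but not in TPM, where all Fpn-LKO libraries (8.76 to 9.97) were above LT (7.11 to 8.72). With TPM the median log2 fold change was also higher, 0.083 to 0.097 by pseudocount. It was taken over another set of genes, those with a mean of at least 1 TPM. The log2 fold change of Slc11a2 was 0.15 to 0.17. The gene is known to make transcripts that end with and without an IRE, of a form the searched letters do not cover. The table sums them over 11 RefSeq models, so that a shift between them is not visible.

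Trf (gene 22041; chr9:103208876-103230286, minus strand) and Cp (gene 12870; chr3:19956933-20009750, plus strand) are secreted plasma proteins made by hepatocytes. Trf had 12806, 12677 and 18243 CPM in LT, against 14370, 14680 and 13550 in Fpn-LKO, a fold change of 0.974 with a 95% interval from 0.645 to 1.47. LT replicate 3, with the most Tfrc, also had the most Trf. Cp had 1572, 1220 and 1685 CPM in LT, against 1451, 1597 and 1588 in Fpn-LKO, and its fold change was 1.04 with a 95% interval from 0.779 to 1.38. The Fpn-LKO libraries of both genes lay within the LT range. Over the mice of a genotype, the pooled SD of log2 CPM was 0.11 for Tfr2 and Slc39a14 and 0.69 for Steap4, with a median of 0.22 for all genes tested.

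**Figure D4:**
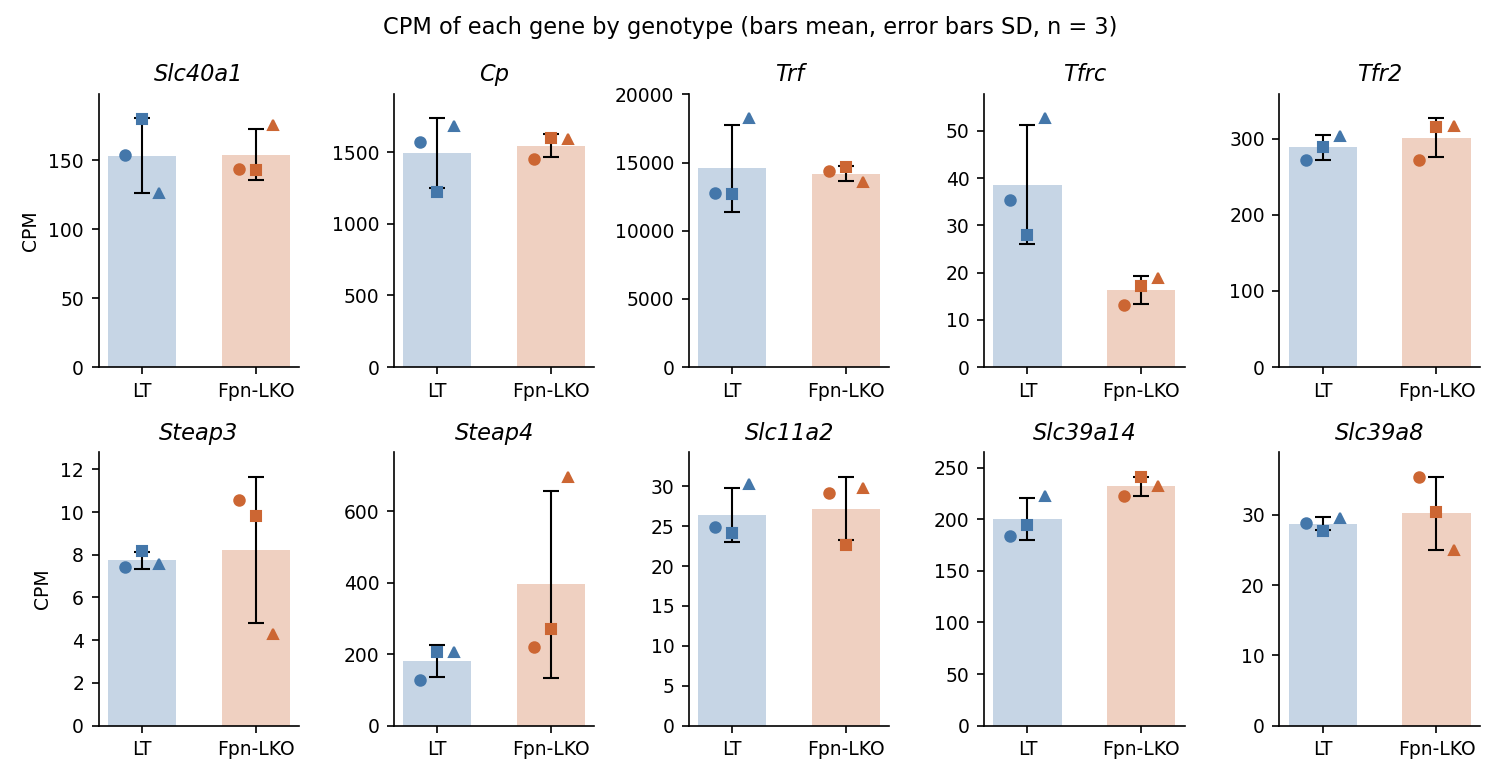
CPM of each of the 10 genes in LT and Fpn-LKO, from 0, with bars for the mean, error bars for the SD and points for the 3 mice of a genotype. The Fpn-LKO points of Tfrc (13.1 to 18.9) are below all LT points (28.0 to 52.6), and 1 Steap4 point, at 696, stands far above the rest.

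Profiles close to that of Tfrc were sought among 12577 genes with a mean of at least 1 CPM, by the root-mean-square difference of log2 CPM over the 6 libraries after subtracting each gene's mean. Among the closest were Gm6472 (0.223) and Nudt16 (0.238), where Tfrc itself varied by 0.675 around its mean. Gm6472 had 39.3, 29.5 and 41.4 CPM in LT, against 17.3, 17.4 and 21 in Fpn-LKO. Its log2 fold change was -0.98 and that of Nudt16 was -0.97 (adjusted p of 0.401 and 0.861 in the edgeR fit). Fold changes near that of Tfrc follow from the choice by likeness and are no separate result. For Slc40a1, which varied by 0.178, the closest were Kdm3a (0.0423), Ddx52 (0.0438) and Ggta1 (0.0546). All 3 had log2 fold changes of 0.02 to 0.04, and are named for likeness alone.

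Other genes of iron metabolism were counted from lists, at an unadjusted p-value under 0.05, which 4.80% of all genes passed (452 higher and 378 lower). All genes tested had a median log2 fold change of -0.0040. Of the 11 iron storage and regulatory genes tested of 12 listed, 2 were higher and 0 lower, with a median of 0.17. Ftl1, the ferritin light chain, had 2029, 2055 and 1712 CPM in LT, against 2928, 2707 and 3266 in Fpn-LKO (0.62 on the log2 scale with a standard error of 0.17, adjusted p = 0.926 in the edgeR fit). Ftl1 has near-identical pseudogenes, among which reads could be split. The Ftl1 count was higher, and Tfrc lower, in the 3 Fpn-LKO libraries. Among these, replicate 3 had the most Ftl1 (3266 CPM) and also the most Tfrc (18.9 CPM). In LT, replicate 3 had the least Ftl1 (1712 CPM) and the most Tfrc (52.6 CPM). A link between these genes was not tested. Alas2, the first heme enzyme of erythroid cells, had a log2 fold change of 0.47 and Pcbp2, an iron chaperone, one of 0.33, with overlapping groups.

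Of 23 other iron and heme carriers tested of 26 listed, 1 was higher and 1 lower, against 4.80% of all genes in both directions, with a median of 0.14. Snx3, which returns the transferrin receptor from endosomes, had 19.8, 22.4 and 20.9 CPM in LT, against 27.9, 24.7 and 24.1 in Fpn-LKO (log2 fold change 0.28, adjusted p = 0.982 in the edgeR fit). Abcb10, a mitochondrial transporter, had means of 34.9 and 27.3 CPM, and Cd163, the hemoglobin scavenger of macrophages, 21.5 and 11.4 CPM, both with overlapping groups. Of 20 genes of hepcidin and its regulators tested of 22 listed, where Hfe2 is an older name of Hjv, 0 were higher and 1 lower, a share near the 4.80% of all genes, and the median was 0.049. The lower one was Bmp6, an endothelial signal for hepcidin, with 1.27, 2.79 and 1.52 CPM in LT, against 1.17, 0.900 and 0.517 in Fpn-LKO (log2 fold change -1.10, adjusted p = 0.982 in the edgeR fit). The endothelial marker sum was also lower in these libraries, with a ratio of means of 0.869, and its part in Bmp6 was not tested. Bmpr1a and Acvr1, receptors of that signal, had log2 fold changes of 0.21 and 0.34.

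Of 15 acute-phase genes, 2 were higher and 0 lower at that level, against 4.80% of all genes, with a median log2 fold change of 0.34. These were Crp (102 ± 15.9 and 149 ± 12.7 CPM) and Lbp (47.7 ± 2.38 and 67.8 ± 10.4 CPM; SD, n = 3 each), with adjusted p of 0.823 and 0.829 in the edgeR fit, and Il1rn followed with 3.36 and 5.33 CPM. Of 10 cell cycle genes, 0 were called in either direction, against the same 4.80%, and the median was 0.41. Ccna2, Pcna and Ccnb1 had log2 fold changes of 0.93, 0.31 and 1.37, Ccnb1 from at most 0.216 CPM. No gene of the 5 lists passed the adjusted threshold, and the edgeR fit called 4 genes in all.

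**Figure D5:**
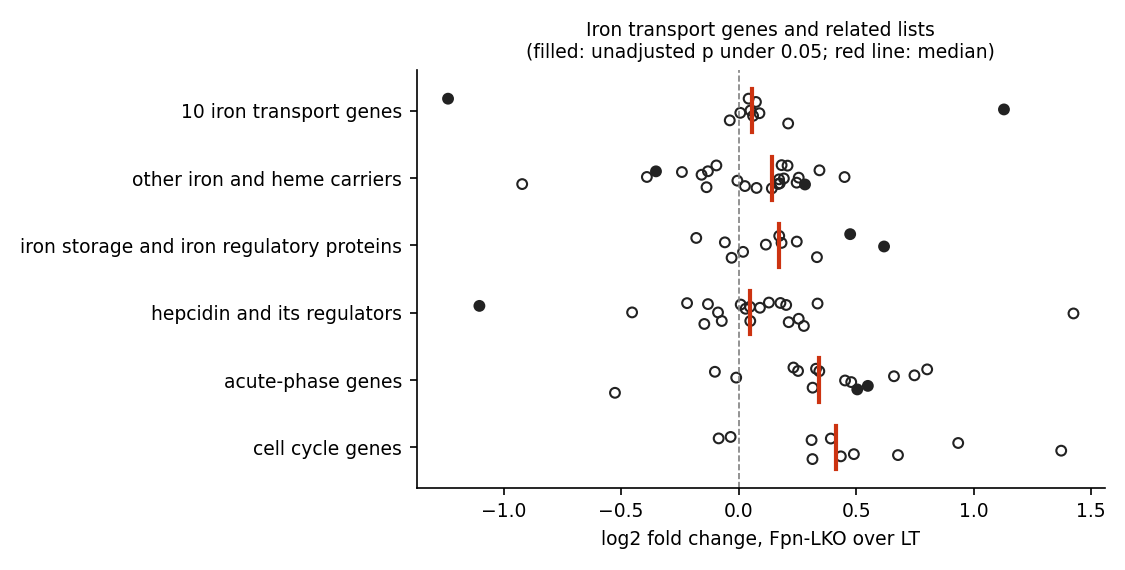
Log2 fold change, Fpn-LKO over LT, of the 10 genes and of every tested gene of 5 related lists, 1 circle per gene, filled at an unadjusted p-value under 0.05, with a red line at the median. Tfrc (-1.24) and Steap4 (1.13) are the filled circles of the top row, whose median is 0.056, and the acute-phase and cell cycle rows have medians of 0.34 and 0.41.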

How the data were processed

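RNA-seq libraries of mouse liver were sequenced by the authors. The labels name HISAT2 2.1.0, Bowtie2 2.3.4.1 and StringTie 2.1.3b with build mm10 (GRCm38). The authors deposited read counts per RefSeq gene, not normalized, and also FPKM, scaled by length and library, and TPM. Whether counting used strand is not given in the sources used here. The labels name an mRNA kit, and the methods a total RNA kit with rRNA removal. FPKM were not used in a test.

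Counts were fitted with edgeR 4.0.16 in R 4.3.3 (TMM, quasi-likelihood), keeping genes that had 0 reads in at most 1 library, a rule of the study. This kept 17274 genes, all 10 members among them. P-values were adjusted over these by Benjamini-Hochberg, with a threshold of 0.05, and 95% intervals used the standard error from the F statistic. exactTest, which the methods name, DESeq2 1.42.0, limma 3.58.1 on TPM, other filters and scalings, a replicate block and leaving out each mouse were alternatives. Scripts were tried on simulated data. The common biological coefficient of variation was 0.275, and counting error was at most 7.09% for any member.

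All 10 members were named, with the 3 genes of smallest p-value in each list and the 3 profiles most like Tfrc and Slc40a1. Of these, 1 gene is not reported here. The members and lists were chosen with earlier results of these data known. The labels number the libraries as replicates, read here as 1 mouse each, without naming the animals; if any share an animal, p-values measure technical spread only. Nothing in the labels pairs mice across genotypes. Libraries of a genotype differed by far more than sampling noise (chi-square per degree of freedom from 54.5 to 265).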

Additional observations from a re-analysis of the deposited data

How the results depend on the processing

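Steap4, Slc39a14, Tfr2 and Tfrc kept their direction in all 15 alternatives. Tfrc was called with DESeq2 (log2 fold change -1.23) and exactTest (-1.24) only, each giving 1 member called where the main test gave 0; the cause was not tested. With 1 mouse left out, Tfrc ranged from -1.42 to -0.95 and Slc40a1 from -0.11 to 0.14, negative without LT replicate 3 (-0.11) or Fpn-LKO replicate 3 (-0.10). The replicate block gave -1.21 for Tfrc (adjusted p = 0.544 in edgeR) and reversed Steap3 to -0.0052. The deviations of same-numbered mice from their genotype means had correlations of 0.129, -0.00948 and 0.0448. Such low correlations cannot show whether these mice shared a litter or a preparation. Their library numbers are adjacent (2 and 1, 4 and 3, 7 and 8 for LT and Fpn-LKO). Trf turned positive without LT replicate 3 (0.16) and with limma on TPM (0.076 at both pseudocounts). The limma value lies below the median of genes with a mean of at least 1 TPM (0.083 and 0.097 by pseudocount). With edgeR the median was -0.0040, over the 17274 genes tested there. Other reversals of uncalled values near 0, each with 1 mouse left out, were Cp without LT replicate 2 (-0.07), Slc11a2 without LT replicate 2 (-0.015), Fpn-LKO replicate 1 (-0.011) or Fpn-LKO replicate 3 (-0.025), Steap3 without Fpn-LKO replicate 1 (-0.13) or 2 (-0.06), and Slc39a8 without Fpn-LKO replicate 1 (-0.052). With 1 mouse left out the highest or lowest values on the other side were 0.15 for Cp, -0.12 for Trf, 0.40 for Steap3 and 0.20 for Slc39a8. Genes called in all were 72 with DESeq2, 63 with exactTest, 7 with limma at both pseudocounts, 0 with the replicate block and 0 to 6 without 1 mouse, against 4 with all (0 without LT replicate 2 and 1 without LT replicate 1, LT replicate 3 or Fpn-LKO replicate 2). Members without overlap numbered 3 to 5 without 1 mouse, where 18.8% to 22.4% of all genes did not overlap, against 10.6% with all mice. In TPM Slc11a2 also had no overlap. The share of all genes was not computed on that scale, so a count of members there has no background.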
